A study of Mus musculus with 3 samples.

Results

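The regions described here are the estrogen receptor α (ERα) binding regions of the mouse mammary gland that lie at promoters. ChIP-seq, in which DNA bound by a protein is recovered with an antibody and sequenced, had been performed with an ERα antibody (sc-542) on 2 replicates and compared with 1 input library of chromatin that did not pass the antibody step. All 3 libraries came from mammary glands of WT BALB/c females that were ovariectomized when 6 weeks old, left for 10 days and given 100 ng of 17β-estradiol 2 h before collection, so the lists hold no vehicle-treated ChIP library and describe binding after estradiol only. Each replicate was a pool of glands from several mice. A region was counted as shared where a peak of replicate 1 and a peak of replicate 2 overlapped by at least 1 bp, and it was called proximal where the midpoint of the overlapping interval lay from 1 kb upstream to 400 bp downstream of the nearest annotated transcription start site (TSS) of any transcript. Of 6243 shared regions on chromosomes 1 to 19 and X, 406 (6.50%, 95% interval 5.90% to 7.14%) were proximal, and the distal regions used for comparison were the 5140 farther from the TSS but within 100 kb. The value of a peak is its score, read here as the negative log10 of its p-value multiplied by 10. A score of 80 then stands for the cutoff of 1e-08. Brackets hold 95% Clopper-Pearson limits, which account for the error of counting and for no other.

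ERα is a ligand-activated transcription factor of the nuclear receptor family that binds DNA as a dimer. Its preferred site, the estrogen response element (ERE), is a palindrome of the arms GGTCA and TGACC separated by 3 bases, and a single arm in the form AGGTCA is a half-site that many nuclear receptors recognize. ERα can also be held on DNA by other factors such as AP1 or SP1, the latter a protein that binds GC boxes. Promoters of widely expressed genes are often CpG islands, stretches rich in G and C in which the dinucleotide CG has not been depleted, whereas most enhancers are poor in it.

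The EREs of 16 proximal regions are shown first, since these are the sequences that ERα is known to recognize. They were read from the NCBIM37 reference genome (mm9) on the strand of the nearest gene, 5′ to 3′, and the mice were of another strain than the reference, so single bases may differ. Capitals mark the 13 bases of the ERE and lower case the 8 bases on each side. The first 5 sites had 1 mismatch to the consensus and belonged to regions with some of the highest scores, and the other 11 had none.
Triobp, chr15:78814204-78814232, plus strand: catttccaGGTCGGTCTGACCacctggcc
Htra1, chr7:138079398-138079426, plus strand: gtggccggGGTCGATGTGACCgccctccg
Mad2l1, chr6:66485093-66485121, plus strand: accttgtaGGTCACCAGGACCtggaacaa
Pomt1, chr2:32102527-32102555, plus strand: gtgagtgaGGCCACCCTGACCctgaccct
Nlrp3, chr11:59355033-59355061, plus strand: gtctccagTGTCACAGTGACCcctatata
Gm15408, chr5:149818738-149818766, plus strand: cctgtccgGGTCACTCTGACCtcaatagc
Map2k7, chr8:4239168-4239196, plus strand: agggagagGGTCACGGTGACCtggaagtc
Lrrc41, chr4:115749805-115749833, plus strand: cagaaaaaGGTCAGGCTGACCctatggtg
Map2k1, chr9:64101728-64101756, minus strand: tttgtctgGGTCAAAATGACCcagcccaa
Nrip1, chr16:76373923-76373951, minus strand: gagcatggGGTCAAAATGACCtagagtta
Tnnc1, chr14:32020944-32020972, plus strand: gattctccGGTCAGCTTGACCtcaggcaa
Aqp3, chr4:41044882-41044910, minus strand: accctcagGGTCAAGCTGACCtccaaagc
Samd5, chr10:9395298-9395326, minus strand: agccaccgGGTCACCGTGACCccgggaac
Itgb3, chr11:104498775-104498803, plus strand: caagcctgGGTCAACTTGACCtcaacaaa
Ebag9, chr15:44451111-44451139, plus strand: tgtttccgGGTCAGGGTGACCtgtgggga
Dbh, chr2:27032380-27032408, plus strand: ttgaccagGGTCACAGTGACCtcagagag

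Positions are given from the nearest TSS, with minus for upstream. The centre of the ERE was at -23 bp at Nlrp3 and at -62 bp at Ebag9. At Htra1, Mad2l1, Map2k1 and Samd5 it lay between -306 and -213 bp, and at Nrip1, Gm15408, Map2k7, Aqp3 and Lrrc41 between 135 and 329 bp. At Triobp and Itgb3 it was at 83 and 86 bp, at Dbh at -219 bp, and at Tnnc1 and Pomt1 at -540 and -552 bp. The nearest TSS was not the most 5′ one of its gene at Triobp, Pomt1, Map2k7, Lrrc41, Itgb3 and Dbh. The spacers between the arms varied, although Map2k1 and Nrip1 carried the same 13-base site.

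The 200 bases before the TSS of 2 of these genes show the kinds of promoter that held an ERE, with the site again in capitals.
Ebag9, chr15:44450987-44451186, plus strand: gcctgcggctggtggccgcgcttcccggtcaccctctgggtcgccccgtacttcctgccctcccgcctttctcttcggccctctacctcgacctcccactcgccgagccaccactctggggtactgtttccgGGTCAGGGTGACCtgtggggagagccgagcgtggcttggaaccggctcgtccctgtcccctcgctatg
Nlrp3, chr11:59354870-59355069, plus strand: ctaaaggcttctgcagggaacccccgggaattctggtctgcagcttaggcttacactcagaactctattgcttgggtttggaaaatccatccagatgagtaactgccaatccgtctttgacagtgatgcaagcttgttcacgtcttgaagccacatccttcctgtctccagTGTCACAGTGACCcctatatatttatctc
The Ebag9 promoter had 17 CG dinucleotides, 68.5% G and C and an observed to expected CpG ratio of 0.746. In the Nlrp3 promoter there were 3 CG dinucleotides, 47.5% G and C and a ratio of 0.271. Neither stretch held a GC box or the letters TATAAA. Promoters rich and poor in CpG thus both carried an ERE within 100 bp of the start.

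The position of the regions was not spread evenly over the window that defined them. The median distance from midpoint to TSS was -147 bp (quartiles -404 and 64 bp). There were 50.5 regions per 100 bp in the 200 bp before the TSS and 36.0 in the 200 bp after it, whereas between -1000 and -801 bp there were 16.5. The midpoint lay upstream in 279 regions (68.7%), and the TSS itself was inside the shared interval in 255 (62.8%, 57.9% to 67.5%). The intervals were 605.5 bp wide in the median (quartiles 510.0 and 728 bp), and 4 were narrower than 100 bp.

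**Figure D1:**
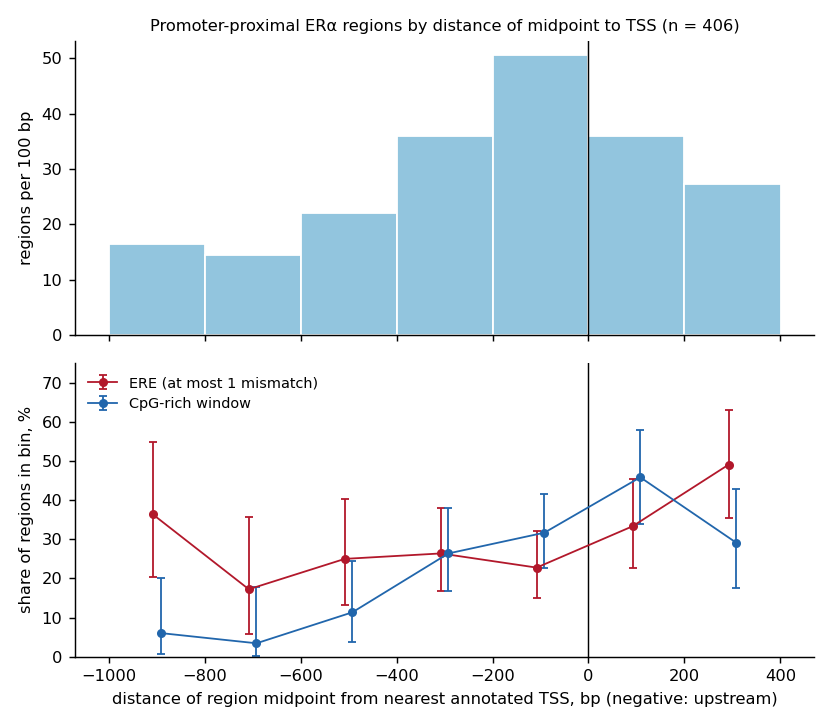
The upper panel plots the number of proximal regions per 100 bp against the distance of their midpoint from the TSS in bp, in bins of 200 bp, and the lower panel the percentage of the regions in each bin with an ERE and with a CpG-rich window, with exact 95% intervals. Density was highest in the bin just upstream of the TSS, the CpG-rich share was highest at 45.8% in the bin just downstream, and the ERE share was highest at 49.1% in the bin from 200 to 400 bp downstream.

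The limits of the window cut through a continuous series of positions. Just inside were regions at AC163625.1 (-996 bp) and Itgb8 (-994 bp) on the upstream side and at Dpyd (398 bp) and Cdc42ep1 (393 bp) on the downstream side. Just outside were regions at Megf9 (-1007 bp), Ppp1r1b (-1012 bp), Calml4 (408 bp) and 2810432L12Rik (410 bp). The region at Ppp1r1b, outside the limit, scored 490.5 in replicate 1, 444 in replicate 2 and so exceeded all 4 of those just inside, whose scores ran from 84.6 to 172.5.

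The 406 regions were nearest to 390 genes, of which 325 were protein-coding. By region, 339 (83.5%) had a protein-coding gene as the nearest, 38 a processed transcript, 12 a lincRNA, 5 a miRNA and the rest other small RNAs or pseudogenes. In 231 regions (56.9%) the nearest TSS was the most 5′ one of its gene, and in 175 (43.1%) it was an internal start of a shorter transcript. The midpoint lay in an intron of some transcript in 161 regions, outside annotated transcripts in 145, in a first exon in 79 and in a later exon in 21. In 19 regions a protein-coding gene on the opposite strand started within 1 kb upstream of the nearest TSS. That second start may lie farther than 1 kb from the region itself. For 148 of the 390 genes a distal shared region also had that gene as the nearest, and for the other genes none did.

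Peak scores of the proximal regions covered most of the range of the lists. In replicate 1 they ran from 80.8 to 2860.0 with a median of 254 (quartiles 149 and 447), and in replicate 2 from 80.1 to 1939 with a median of 159.5 (quartiles 112 and 315). Distal regions had medians of 248 and 179.6, so the proximal median was slightly higher in replicate 1 and lower in replicate 2. A score of at least 200 in both replicates was reached by 148 proximal regions (36.5%, 31.8% to 41.3%) and by 42.2% of distal ones. With 2 replicates these are descriptions, and regions are not replicates of each other.

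Replicate 1 gave the higher score at 342 of the 406 regions (84.2%). The median ratio of replicate 1 to replicate 2 scores was 1.39 at proximal and 1.31 at distal regions. It was 1.64 where the proximal window was CpG-rich and 1.36 where it was CpG-poor, terms defined with the sequence results. Among distal regions it was 1.73 in the few CpG-rich windows and 1.30 in the others, so the higher ratio followed the sequence class in both positions. Scores depend on sequencing depth as well as enrichment, the lists hold no reads, and the source of the difference was not tested.

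The regions with the highest scores, ranked by the lower of the 2, were led by Triobp (ENSMUSG00000033088), whose product binds actin filaments, with scores of 2860.0 and 1939 (chr15:78813390-78814807, in an intron and at -37 bp from an internal TSS). Ccdc117 followed with 2101 and 1842 (chr11:5441851-5442933, outside annotated transcripts), and Htra1, which encodes a secreted serine protease, with 2422 and 1761 (chr7:138078891-138079837). These were also among the top 100 peaks of each list, at ranks 26 and 57, 96 and 62, and 56 and 72. A region over a miRNA annotated as AC163033.1, opposite the start of Plekhg3, had scores of 1897 and 1578.

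Lower scores between 1059 and 1552 were found at the other 11 of the first 15 regions. They included Mad2l1, a component of the spindle assembly checkpoint, with 1796.5 and 1448 (chr6:66484534-66485756, midpoint at -239 bp from its most 5′ start). Map2k7, a kinase kinase that activates JNK, had 1793 and 1382. Pomt1, a protein O-mannosyltransferase, had 1582 and 1236, and Nlrp3, the sensor of an inflammasome, had 1219 and 1096 (chr11:59354713-59355260). Mdfic, named for its MyoD family inhibitor domain, had 1191 and 1059. The remaining 6 were at Gm15408, Gm14216, 2310067B10Rik, 4931413K12Rik, a SNORA17 copy and n-R5s172, an annotated 5S rRNA copy, and their scores over both replicates ran from 1159.7 to 2381. In the windows of 14 of the 15, the copies included, no stretch of 30 bases occurred a second time in the reference genome, and at Mdfic 10.2% of them did. No list of regions with artificially high signal was applied, and in 10 of the 406 windows over 50% of the 30-base stretches were repeated elsewhere in the genome, so that reads there may come from other copies. Of these, 6 lay on chromosome 9, at Gm10715, Gm10717, Gm10718, Gm11168 and, with 2 regions, Gm10722, and 4 at Gm10801, BC023719, 2610005L07Rik and Klk1b24.

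**Figure D2:**
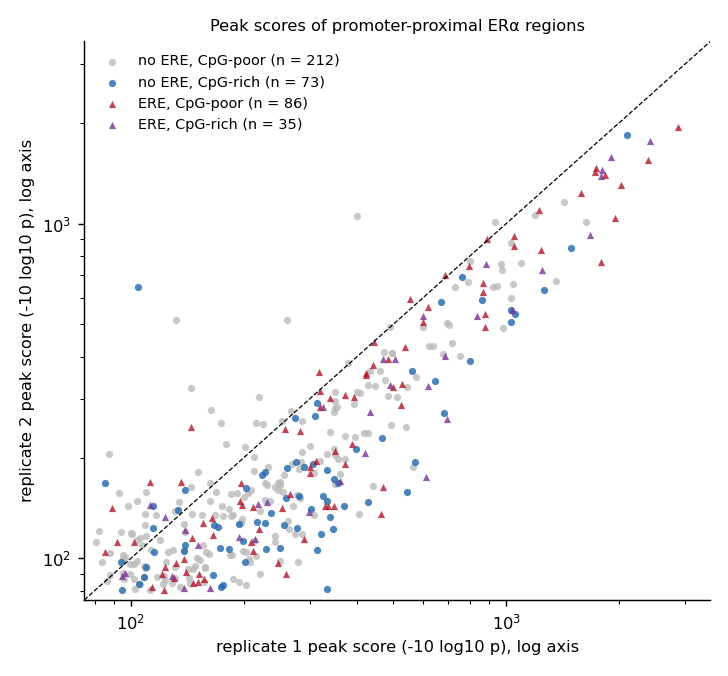
The score of each of the 406 proximal regions in replicate 2 is plotted against its score in replicate 1, both on log axes, with colour and shape for the presence of an ERE and of a CpG-rich window and the dashed line at equal scores. Most points, 342 of 406, lie below the line, and regions without an ERE are concentrated at low scores.

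An ERE with at most 1 mismatch was found in 121 of the 406 windows of 400 bp around the midpoints (29.8%, 25.4% to 34.5%) and one without mismatch in 29 (7.14%, 4.84% to 10.1%). In windows of the same width at all 22350 protein-coding genes, from 500 to 101 bp upstream of the most 5′ TSS, the shares were 1.11% and 0.0582%. Distal windows had 31.6% and 6.63%. The proximal and distal shares with at most 1 mismatch could not be told apart (p = 0.505 by two-sided Fisher's exact test and 0.551 when adjusted over 12 motifs by the Benjamini-Hochberg method).
The site was near the middle of the region. Its centre was a median of 34 bp from the midpoint (quartiles 15 and 68 bp), and it lay within 50 bp of it in 79 of 121 regions. Of these 121 sites, 68 were upstream of the TSS and the others at or downstream of it. Only 2 of the 121 windows held more than 1 such site.

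Where the ERE had a single mismatch, this fell unevenly over the arm. Counting the bases of each GGTCA arm from its outer end, with the palindrome folded, the mismatch was at position 3, the T, in 39 of 92 proximal sites (42.4%, 32.1% to 53.1%) and at position 1 in 22 (23.9%, 15.6% to 33.9%). Positions 2 and 4 were changed in 9 and 7 sites and position 5 in 15. Distal sites had 34.0% at position 3 and 34.2% at position 1, which lies inside the proximal interval for position 3 and just outside it for position 1. Of the sites printed above, Pomt1 had its mismatch at position 3, Nlrp3 at position 1, and Triobp, Htra1 and Mad2l1 at position 5, next to the spacer.

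Regions with an ERE had the higher scores. Their medians were 339 in replicate 1 and 209 in replicate 2, against 228 and 153 without one, and 468 and 315 for the 29 regions with an ERE without mismatch. The same order held at distal regions, where an ERE went with medians of 339 and 256 against 219 and 158. By quartile of the lower score, the share with an ERE was 23.5%, 26.7% and 20.8% in quartiles 1 to 3 and 48.0% (38.0% to 58.2%) in quartile 4, which began at 308. The interval of quartile 4 did not overlap those of the other quartiles.

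Sites without mismatch were found at genes of different function, and their regions ranged over nearly all scores. Gm15408, a processed transcript, led with 1718.5 and 1428. Lrrc41 had 1051 and 918, and Map2k1, the kinase kinase MEK1 that activates ERK, had 1048 and 855 (chr9:64101443-64102106). Nrip1, which encodes the corepressor RIP140 and is itself a coregulator of ERα, had 882 and 757 (chr16:76373340-76374315), in an intron.
Tnnc1, a troponin of slow and cardiac muscle, had 685 and 702, and Aqp3, a water and glycerol channel, 865 and 662. Itgb3 (integrin β3) had 539 and 428 and Dbh (dopamine β-hydroxylase) 499 and 324. Arhgef19, a guanine nucleotide exchange factor, had the same score within a few units in both replicates, 319 and 315. Others among the 15 with the highest scores were 1110054O05Rik, BC023719 and Nynrin, with lower scores of 724, 378 and 332. At the other end, Hey2 carried a site without mismatch at scores of 138 and 81.4, close to the cutoff.

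CpG content differed between the proximal and the distal regions. The rule placed proximal windows at starts of transcription, where CpG islands often lie, so the test below describes that choice of position. A window was called CpG-rich where at least 50% of its bases were G or C and the observed to expected CpG ratio was at least 0.6. This held for 108 proximal windows (26.6%, 22.4% to 31.2%) and for 43 of 5140 distal ones (0.837%, 0.606% to 1.13%), with an odds ratio of 43.0 (p = 1.00e-92 by two-sided Fisher's exact test). Of all protein-coding promoters 21.1% were CpG-rich by the same thresholds, in windows from 500 to 101 bp upstream of the most 5′ TSS. Those windows leave out the start and the bases after it, where the share among proximal windows was highest, so the shares are not measured alike. The median GC content was 53.9% in proximal and 48.2% in distal windows. The share was 6.06% for midpoints between -1000 and -801 bp and 45.8% for those in the first 200 bp of the transcript.
The ERE was about as frequent in both classes of proximal window, 32.4% (23.7% to 42.1%) of CpG-rich and 28.9% (23.8% to 34.4%) of CpG-poor ones. CpG-rich windows with an ERE included Htra1, Mad2l1, Map2k7, Nrip1, Samd5 and Ebag9, and Ccdc117 was CpG-rich with no ERE in its window. ERE shares were 25.1% (20.1% to 30.6%) where the midpoint was upstream of the TSS and 40.2% (31.6% to 49.2%) where it was at or downstream of it, a difference that was not tested.

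Other motifs also differed in share between the proximal and the distal windows. As with CpG content, the rule placed proximal windows at starts of transcription, so these tests describe that choice of position too. Each was searched on both strands without mismatch, and differences were tested by two-sided Fisher's exact test with Benjamini-Hochberg adjustment over 12 motifs, of which 6 passed 0.05. The GC box GGGCGG was in 131 proximal windows (32.3%) against 8.05% of distal windows and 27.3% of all promoters (exact test, adjusted p = 1.56e-38). The ETS motif CCGGAAG was in 6.65% against 1.87% and 5.0% (exact test, adjusted p = 5.94e-07). The motif GTCACG, listed for PAX2, was in 14.5% against 9.03% and 7.46% (exact test, adjusted p = 0.00163). These 3 motifs contain the dinucleotide CG, and GTCACG can overlap an ERE arm.
AP1 sites, TGANTCA, went the other way, at 11.8% of proximal against 22.7% of distal windows and 9.96% of all promoters (exact test, adjusted p = 4.17e-07). The half-site AGGTCA, which overlaps any ERE preceded by A, was in 56.4% against 63.3%, well above the 21.6% of all promoters (exact test, adjusted p = 0.0130). The letters TATAAA were in 10.8% against 16.8% and 20.2% (exact test, adjusted p = 0.00392). No difference was detected for the extended half-site CAAGGTCA (8.87% against 9.28%), the cAMP response element TGACGTCA (1.23% against 0.506%), the forkhead motif TGTTTAC (6.65% against 8.31%), CCAAT (38.2% against 42.5%) or the E-box CACGTG (6.65% against 5.27%), with adjusted p between 0.124 and 0.859. Where both scores had to reach 200, 2 of the 6 differences passed, those of the GC box and the ETS motif.

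**Figure D3:**
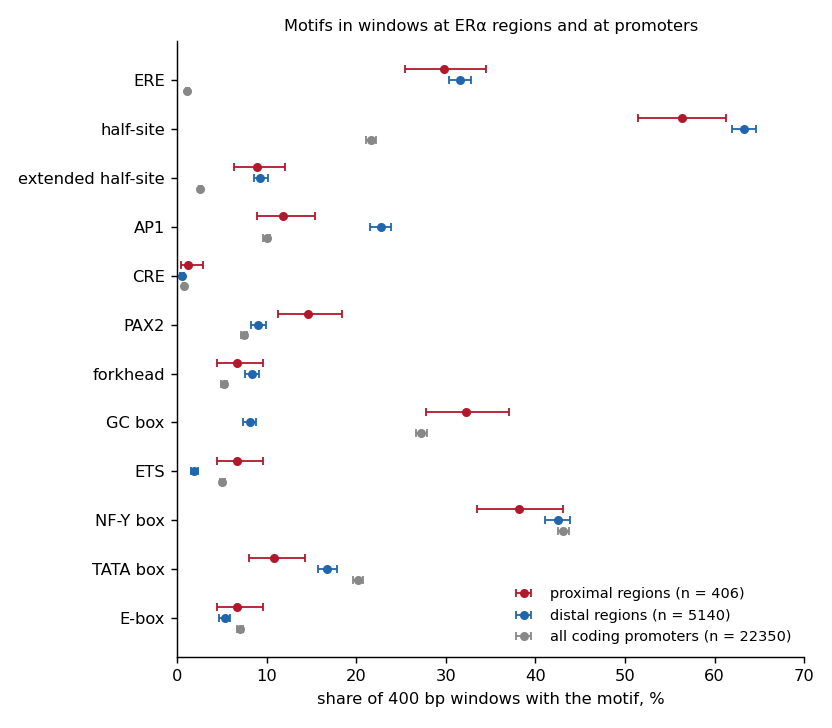
The percentage of 400 bp windows that held each of 12 motifs is plotted with exact 95% intervals. The windows are those of proximal regions, distal regions and all protein-coding promoters, the last from 500 to 101 bp upstream of the most 5′ TSS. The NF-Y box is CCAAT and the TATA box TATAAA. Proximal regions were close to distal ones in the ERE, at 29.8% and 31.6%, and were near all promoters in the GC box, at 32.3% and 27.3%.

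Base composition moved with several of these motifs. In CpG-rich proximal windows the GC box was found in 74.1%, the ETS motif in 19.4% and GTCACG in 29.6%, against 17.1%, 2.01% and 9.06% in CpG-poor ones. Among CpG-poor windows alone, ETS (2.01% proximal, 1.80% distal) and GTCACG (9.06% and 8.87%) showed no detectable difference (exact test as above, adjusted p = 1 for both). The GC box was still more frequent in proximal windows of that class (17.1% against 7.63%, exact test, adjusted p = 2.14e-06) and AP1 less frequent (14.1% against 22.8%, exact test, adjusted p = 0.00196). TATAAA and AGGTCA no longer passed there (exact test, adjusted p = 0.122 and 0.522). Of the 285 proximal windows without an ERE, 147 (51.6%) held a half-site and 161 (56.5%) a half-site or an AP1 site. Thus 138 of them had no half-site in these 400 bases. Among the 3518 distal windows without an ERE the shares were higher, at 58.0% and 67.6%, a difference that was not tested.

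In the replicate 1 list, peaks at promoters had a partner in the other replicate less often than distal peaks. For this comparison each peak was placed by its own midpoint, before overlap with the other list. Of 799 proximal peaks of replicate 1, 404 (50.6%, 47.0% to 54.1%) overlapped a peak of replicate 2, against 66.2% (65.2% to 67.3%) of 7748 distal peaks (p = 5.16e-18 by two-sided Fisher's exact test, 1.55e-16 when adjusted over 30 comparisons of this kind). In the replicate 2 list the shares were 90.7% (87.5% to 93.2%) of 439 and 90.5% (89.7% to 91.3%) of 5618, with no detectable difference (p = 1 by the same exact test).
Within quartiles of score, the difference in replicate 1 passed the test in all but the highest. In the lowest score quartile of that list 39 of 279 proximal peaks and 25.4% of distal peaks had a partner (exact test, adjusted p = 6.91e-05). In the next quartiles the shares were 40.6% and 50.4% (exact test, adjusted p = 0.0307) and 77.6% and 86.7% (exact test, adjusted p = 0.00734). In the highest they were 99.4% and 99.8% (exact test, adjusted p = 0.495).

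The unpartnered promoter peaks of replicate 1 were mostly CpG-rich. Of the 331 CpG-rich proximal peaks 34.7% (29.6% to 40.1%) had a partner and of the 468 CpG-poor ones 61.8% (57.2% to 66.2%) (two-sided Fisher's exact test, adjusted p = 5.60e-13). Seen the other way, 54.7% of the 395 proximal peaks without a partner were CpG-rich and 9.62% had an ERE, against 28.5% and 29.2% of the 404 with one. CpG-rich distal peaks of replicate 1 were few, and 45 of 95 (47.4%, 37.0% to 57.9%) had a partner, so the share of CpG-rich peaks was not shown to differ between promoters and distal sites (exact p = 0.0304, adjusted 0.0651). Within CpG-poor windows the proximal share of 61.8% was closer to the distal 66.5% (exact p = 0.0390, adjusted 0.0781). In the replicate 2 list CpG-rich and CpG-poor proximal peaks had partners in 93.3% and 89.9% (Fisher's exact test, adjusted p = 0.568). An ERE went with a partner in both lists. In replicate 1 the shares of proximal peaks were 75.6% with an ERE and 44.5% without (exact test, adjusted p = 8.82e-12). In replicate 2 they were 96.0% and 88.5% (exact test, adjusted p = 0.0396). This comparison was not split by score, and regions with an ERE also had the higher scores. Both lists were called against the same input, and the part of depth or of the input in the unpartnered peaks was not tested.

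**Figure D4:**
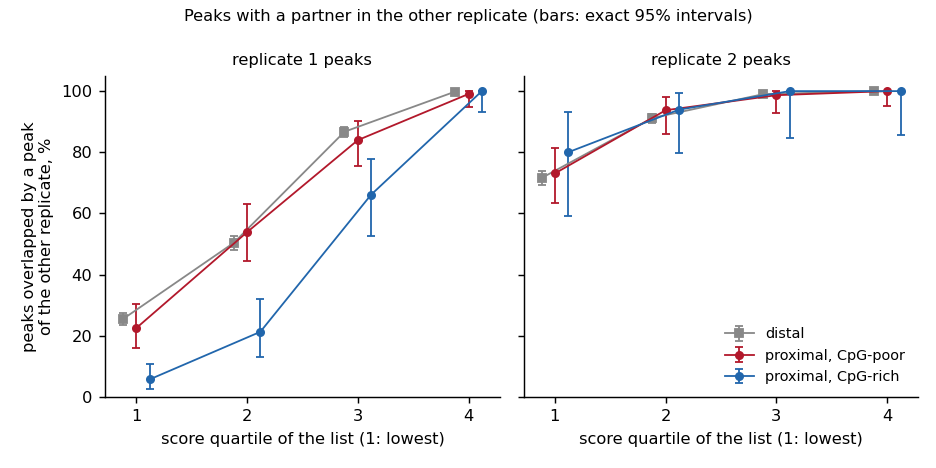
The percentage of peaks overlapped by a peak of the other replicate is plotted for each score quartile of the replicate 1 list and of the replicate 2 list, for distal peaks and for CpG-poor and CpG-rich proximal peaks, with exact 95% intervals. In replicate 1 the CpG-rich proximal peaks lie lowest in quartiles 1 to 3, at 5.67%, 21.2% and 66.1%, and in replicate 2 the intervals of the classes overlap in each quartile.

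The unpartnered proximal peaks with the highest scores in replicate 1 were at Frmd4b (336), Isca1, an iron-sulfur cluster assembly factor (293), and Fgf2, a fibroblast growth factor (282). In replicate 2 they were at a SNORD88 copy (163), Prkce, a protein kinase C (147), and Ppp1r15a (145). None of these 6 had an ERE in its window. The first 3 exceeded the replicate 1 median of 254 for proximal shared regions, and of the others the SNORD88 peak exceeded the replicate 2 median of 159.5. Besides these peaks, Frmd4b and Ppp1r15a each had a shared proximal region.

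Most of the gene lists examined had no member bound at its promoter. As the background, 1.45% of the 22350 annotated protein-coding genes had a TSS nearest to a proximal region, and 11.8% were nearest to any shared region within 100 kb. None of 12 luminal and hormone receptor genes, 6 myoepithelial genes, 24 AP1 and immediate early genes, 15 EGF family genes, 23 TGFβ and BMP genes, 22 Wnt genes, 20 cell cycle genes and 18 circadian clock genes had a proximal region. At these sizes the background share alone comes to less than 1 gene a list, and the lists are samples of their families. Outside them, and picked after the values were seen, Wnt9b, a Wnt ligand, had a proximal region with scores of 319 and 283 at -970 bp, and Ccng2, a cyclin, had one with 280.2 and 153 at -187 bp. Members of the same lists were nearest to some shared region within 100 kb, namely 5 of 12 luminal, 3 of 6 myoepithelial, 10 of 24 AP1 and immediate early, 4 of 15 EGF family, 10 of 23 TGFβ and BMP, 6 of 22 Wnt, 3 of 20 cell cycle and 7 of 18 clock genes, and none of these regions was proximal. Macrophage, endothelial, lymphocyte and muscle markers, 4 or 5 genes each, also had none at a promoter. Peak lists hold no expression, so the tissue could not be checked against marker RNA.

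Of 32 genes known as ERα targets in human breast cancer cells, 6 (18.8%) had a proximal region, beside 1.45% of all protein-coding genes. To some shared region within 100 kb 17 (53.1%) were nearest, beside 11.8%. The list was chosen with earlier results of these data known, so these shares are a description. Apart from Nrip1, described above, the 6 included Wisp2, a secreted protein of the CCN family. It had scores of 696 and 503 and the midpoint at -41 bp (chr2:163646186-163646926). Fkbp4, a co-chaperone of steroid receptors, had 802 and 389 at an internal TSS. Ebag9, which is named for an ERα-binding fragment, had 491 and 330.2 (chr15:44450792-44451486). Wisp2 and Fkbp4 had no ERE with at most 1 mismatch in their windows, whereas Nrip1 and Ebag9 had one without mismatch. Of the 15 coregulator genes listed, Nrip1 alone had a proximal region.

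In other lists a few genes had proximal regions. Among 7 adipocyte genes, Pparg, the central regulator of fat cell differentiation, had 2 proximal regions, 1 at its most 5′ start with scores of 572 and 194 and 1 at an internal start with 139 and 120. The gland holds epithelium, fat and stroma, and the lists cannot tell in which of these cells a region was bound. Among 11 genes of the insulin-like growth factor axis, Igfbp4, a binding protein for these factors, also had 2, with 197 and 128 and with 159 and 104 (chr11:98905560-98906138 and chr11:98908289-98908831), both at internal starts. Of 13 Notch pathway genes, Hey2, a repressor induced by Notch, had the region near the cutoff given above. Ribosomal protein genes, which are widely expressed from CpG-rich promoters, had proximal regions at 4 of 78 (5.13%), beside 1.45% of all protein-coding genes. For any shared region within 100 kb the shares were 11.5% and 11.8%. Among the 4 were Rps7 (260.2 and 186), Rps10 (464 and 136) and Rpl13 (110 and 94.1). The lower score was under 200 for each of those named, and among them only the window at Rps10 had an ERE with at most 1 mismatch.

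Some of the genes called induced or repressed after 2 h of estradiol in RNA-seq of such glands had a proximal region. Of the 218 induced genes in the annotation, 29 (13.3%) had a proximal region, and of the 272 repressed genes 3 (1.10%), beside 1.45% of all protein-coding genes. For 16 of the 29 induced genes the region was at the most 5′ TSS, and for the others at an internal start. Over all 406 proximal regions, 231 (56.9%) were at a most 5′ TSS. To any shared region within 100 kb 121 induced (55.5%) and 32 repressed genes (11.8%) were nearest, beside 11.8% of all protein-coding genes. The higher share of induced genes was therefore not confined to promoters. These lists come from the same experiment, so the counts are a description and not independent evidence of a direction. Among the induced genes Mad2l1 had the highest lower score, followed by Lrrc41. Myrip, which links Rab proteins to myosin on secretory granules, had 1487 and 847, with its midpoint at -422 bp. Phf21b had 796 and 749 and Coq10b, a coenzyme Q binding protein, 764 and 694, so in these the replicates were close. Aqp5, a water channel of secretory glands, had 1028 and 509.6 (chr15:99420835-99421337), about as far apart as at Sgsm1, with 980 and 488.
Others were 2810429I04Rik, 9430038I01Rik, Wisp2, Ppp1r15a and Cyp2s1. Ppp1r15a, the GADD34 subunit of a phosphatase that acts on the translation factor eIF2α, had 423 and 357, besides the unpartnered peak named above. Cyp2s1, a cytochrome P450, had 475 and 341, with the midpoint at -25 bp. Of the 12 named, Lrrc41 had an ERE without mismatch and Mad2l1, Phf21b, 2810429I04Rik and Ppp1r15a had one with 1 mismatch. The 12 were named for having the highest lower scores, so their place in quartile 4 of the lower score follows from that choice. Of the 29 induced genes with a proximal region, 12 were in quartile 4, which held 102 of the 406 regions, and 17 were below it. Over the 29, the windows of 6 had an ERE with at most 1 mismatch and those of 8 were CpG-rich. Of all 406 proximal windows, 121 (29.8%) had such an ERE and 108 (26.6%) were CpG-rich, and no difference was tested.
The repressed genes were Samd5 (1034 and 550.3), Gm16575 (485 and 306) and Trim63, a ubiquitin ligase known from muscle atrophy (329 and 143). Samd5 held an ERE without mismatch at -306 bp, Trim63 had one with 1 mismatch, and Gm16575 had none.

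Several regions at a single gene were found for 14 genes, with at most 3 regions at one gene. At the processed transcript 1300015D01Rik the scores were 1952 and 1039 at an internal start and 112 and 80.6 at the most 5′ start, so the starts differed widely. Popdc2, a membrane protein that binds cAMP, had 484 and 394 at one internal start and 220.2 and 138 at another. Arhgef19 had 3 regions, all at internal starts.
Some of these regions were pieces of the same peak, since 15 of the 406 share a peak of either list with another proximal region. The 2 regions at Slc25a39, a mitochondrial carrier, scored 732 and 104 in replicate 1 but shared a replicate 2 peak of 648. At Pck1, the enzyme that commits to gluconeogenesis, they scored 261 and 132 in replicate 1 and shared a replicate 2 peak of 514. The Arhgef19 regions that scored 216 and 174 in replicate 1 shared a replicate 2 peak of 253. At Gm10722 a single replicate 1 peak of 286 was cut into pieces of 1185 and 8 bp. These regions are not independent observations of the promoter.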

How the data were processed

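ERα ChIP-seq peak lists of 2 replicates of mouse mammary gland were used, and the input library entered only through the peak calling. The authors used BWA for alignment to mm9 and, in each replicate against the input, MACS for peak calling, the version of which is not given in the sources used here. Replicates were not pooled before calling. The deposited score of each peak is -log10 of its p-value multiplied by 10, and no score lay under 80. The lists hold no reads, and the read totals that the study tabulates were not used here. With 2 replicates no spread between animals was estimated.

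Peaks were intersected (at least 1 bp) and each midpoint was assigned to the nearest TSS in GENCODE vM1 (NCBIM37). Peaks on unplaced sequences, 9 in replicate 1 and 7 in replicate 2, were left out. Motifs were searched on both strands in 400 bp windows. Shares were compared by two-sided Fisher's exact test with Benjamini-Hochberg adjustment, over 12 motifs and over 30 comparisons of peaks with a partner. Overlapping windows and regions of 1 gene are not independent, so these p-values describe windows and not animals. Overlap, assignment, motif search and tests were tested on simulated data.

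The members and lists were chosen with earlier results of these data known. Named were the 15 regions with the highest lower score, up to 15 with an ERE without mismatch and all repressed genes. Also named were the 12 induced genes with the highest lower score and up to 4 members of a gene list. To these were added 2 regions at each side of each limit, 6 genes with several regions and the 3 highest unpartnered peaks of a list. One named member is not reported here. Hey2 and the regions used as examples of a group follow from these lists. The induced and repressed genes were matched by Ensembl identifier, 218 of 220 and 272 of 273 being in the annotation, and no value of that RNA-seq was used. Alternatives were score cutoffs, overlap rules, TSS sets, windows, mismatches, CpG definitions and each replicate alone, and CpG-poor windows alone were added after seeing the data. The tools were samtools 1.23.1 and pysam 0.24.0 for sequence, scipy 1.17.1 for tests, matplotlib 3.10.9 for plots, and pandas 2.3.3 and numpy 2.4.6 under Python 3.11.15.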

Additional observations from a re-analysis of the deposited data

How the results depend on the processing

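The count of 406 proximal regions at 390 genes depended on the TSS set and on the score cutoff. With a score of at least 200 in both lists there were 148 regions (5.69% of shared regions) at 147 genes, and 41.2% had an ERE. When each gene was given its most 5′ TSS alone there were 264 (4.23%), of which 34.8% were CpG-rich. The proximal share was 5.73% with peak midpoints within 100 bp of each other and 5.57% with TSSs of protein-coding genes. Using the peaks of 1 replicate alone, either one, gave 439 to 799 regions, a share of 6.44% to 8.32%, 429 to 768 genes, an ERE in 19.5% to 28.7% and CpG-rich windows in 23.7% to 41.4%, and replicate 1 alone gave the values farther from those reported. The ERE share was 7.14% with no mismatch and 64.8% with 2. The CpG-rich share was 21.7% under a stricter definition and 33.0% in windows at the TSS.

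Of the 6 motifs that differed from distal windows, 2 did so at a score of at least 200 and 2 in CpG-poor windows. The GC box passed under each of the 7 alternatives, ETS under all but CpG-poor windows, AP1 under all but the higher score, and AGGTCA under the 200 and 600 bp windows only. GTCACG failed under the higher score and in CpG-poor windows, and TATAAA in these and in 200 bp windows. Signs turned, without passing, for CAAGGTCA at 0.249 percentage points (200 bp), 1.01 (most 5′ TSS) and 0.0964 (CpG-poor), the forkhead motif at 1.08 (score of at least 200) and 0.445 (CpG-poor), and the E-box at -0.205 (CpG-poor). The E-box passed in 600 bp windows and the cAMP response element in 200 and 600 bp windows. Proximal peaks of replicate 1 had fewer partners than distal ones under each alternative, but the difference did not pass in the highest score quartile (-0.482 percentage points, exact p = 0.264) and shrank to -4.71 points in CpG-poor windows (exact p = 0.0390, adjusted 0.0781). In replicate 2 a difference of -8.24 percentage points appeared when midpoints had to lie within 100 bp (Fisher's exact test, p = 7.71e-05), and the cause was not tested. No paired analysis was possible because only 1 group has replicates. Depth was not examined here.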
